A study of Mus musculus with 4 samples.

Results

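The genes followed here make, bind and break down retinoic acid, and their expression was measured in sorted cells of the embryonic mouse retina. They are Rdh10, Aldh1a1, Aldh1a2, Aldh1a3, Dhrs3, Crabp1, Crabp2, Cyp26a1 and Cyp26b1. These are 9 of the 18920 genes that the array's annotation names through a feature (a set of probes) with a single gene symbol. Where a gene has several such features, the one with the highest mean intensity over the arrays stands for it. The genes were named for their roles with earlier results of these arrays in view, and their features were selected on mean intensity over the 4 arrays. Each of the 9 had 1 feature, so that step chose nothing among them. Retinas of BAC-Crx-EGFP mice were dissected at E17.5, and cells were sorted by the reporter into fractions called EGFP-positive and EGFP-negative, with 2 samples of each on 1 array apiece. In these animals, on the 129Sv/Ev background, green fluorescent protein is driven by regulatory sequence of Crx, a homeodomain factor of photoreceptor precursors, carried on a bacterial artificial chromosome. The cells of both fractions carry the transgene, and the labels separate the fractions by the reporter's signal alone. Nothing in the labels tells whether replicates are different animals or different rounds of sorting; the tests therefore rest on the spread among these 4 samples, and this spread could be technical.

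Retinoic acid is made from retinol in a pair of oxidation steps. RDH10 oxidises retinol to retinal, DHRS3 reduces retinal back to retinol, and the aldehyde dehydrogenases ALDH1A1, ALDH1A2 and ALDH1A3 turn retinal into retinoic acid. In the cytoplasm CRABP1 and CRABP2 bind the acid, the cytochrome P450 enzymes CYP26A1 and CYP26B1 degrade it, and in the nucleus it acts through heterodimers of retinoic acid receptors and retinoid X receptors that sit on direct repeats of a short half-site. In the embryonic eye Aldh1a1 is known from the dorsal and Aldh1a3 from the ventral retina, with Cyp26 enzymes in a zone between them.

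Cyp26a1 itself is a known target of retinoic acid, as is the receptor gene Rarb, and both carry such a repeat just upstream of their start. The upstream bases of each are shown because they hold the element through which these genes are known to respond. They are from RefSeq on build GRCm38.p6, 5′ to 3′ along the gene, with the repeat in capitals. The Cyp26a1 stretch is chr19:37697558-37697807 on the plus strand, and the Rarb stretch is chr14:16575477-16575726 on the minus strand.
Cyp26a1: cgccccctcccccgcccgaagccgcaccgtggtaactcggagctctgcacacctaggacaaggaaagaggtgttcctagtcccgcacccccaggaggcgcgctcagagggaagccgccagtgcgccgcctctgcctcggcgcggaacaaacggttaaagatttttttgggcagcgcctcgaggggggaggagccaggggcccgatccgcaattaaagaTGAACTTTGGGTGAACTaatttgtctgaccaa
Rarb: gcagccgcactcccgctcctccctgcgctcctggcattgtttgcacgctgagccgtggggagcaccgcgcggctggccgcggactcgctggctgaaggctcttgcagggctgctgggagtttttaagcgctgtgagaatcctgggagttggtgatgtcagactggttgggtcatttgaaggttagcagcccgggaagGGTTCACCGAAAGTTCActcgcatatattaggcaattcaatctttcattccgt

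The search took as half-site AGGTCA, the variant AGTTCA, the variant GGGTCA or the variant GGTTCA, repeated in the same direction with a spacer of 1, 2 or 5 bases, on both strands. In Cyp26a1 the match has a spacer of 5 bases, reads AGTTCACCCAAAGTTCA on the strand opposite to the gene and ends 15 bases before the gene's start. In Rarb it reads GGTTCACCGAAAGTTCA along the gene and ends 36 bases before the start. Among 32851 windows of 300 bases around gene starts (250 before, 50 after), 32 held the repeat with the spacer of 5 bases, or 0.0974%. The repeat with a spacer of 1 base was in 0.222% of these windows, and that with 2 bases in 0.268%. Windows were at hand for 6 of the 9 genes, 9 windows in all, and Cyp26a1 was the one gene among these 6 with any of the repeats. Some of the 9 are windows of the same gene, and those of Dhrs3 overlap. The hexamer TAATCC, a core motif of CRX and OTX2, was in none of the 9 windows and in 7.06% of all windows on either strand. A match is a description of letters and says nothing of binding.

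On the arrays, the gene for 1 synthesis enzyme fell in the EGFP-positive cells and the other members did not pass the test. Aldh1a3 was 3.09-fold lower in the positive than in the negative fraction. Cyp26a1 had the largest difference toward the negative fraction of all 22431 features, 3.36-fold lower on average, with positive arrays that lay far apart. Crabp2 was 1.75-fold lower on average, also without passing the test. Values are intensities normalised by the authors, and differences are EGFP-positive minus EGFP-negative on the log2 scale, fitted with limma over all features. A feature is called at a Benjamini-Hochberg adjusted p under 0.05. By this rule 0.143% of all features were lower and 0.82% higher in the positive fraction, and of the 9 members 1 was lower and 0 were higher. At an unadjusted p under 0.05 limma had 3 lower and 0 higher, against 9.83% and 9.34% of all features. The genes were picked with earlier results of these arrays known, Aldh1a3 among them, so their count is not independent evidence. The median difference was -0.27 over the 9 genes and -0.01 over all features, with 7 of the 9 below 0. Among all 22431 features 11700 were below 0.

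**Figure D1:**
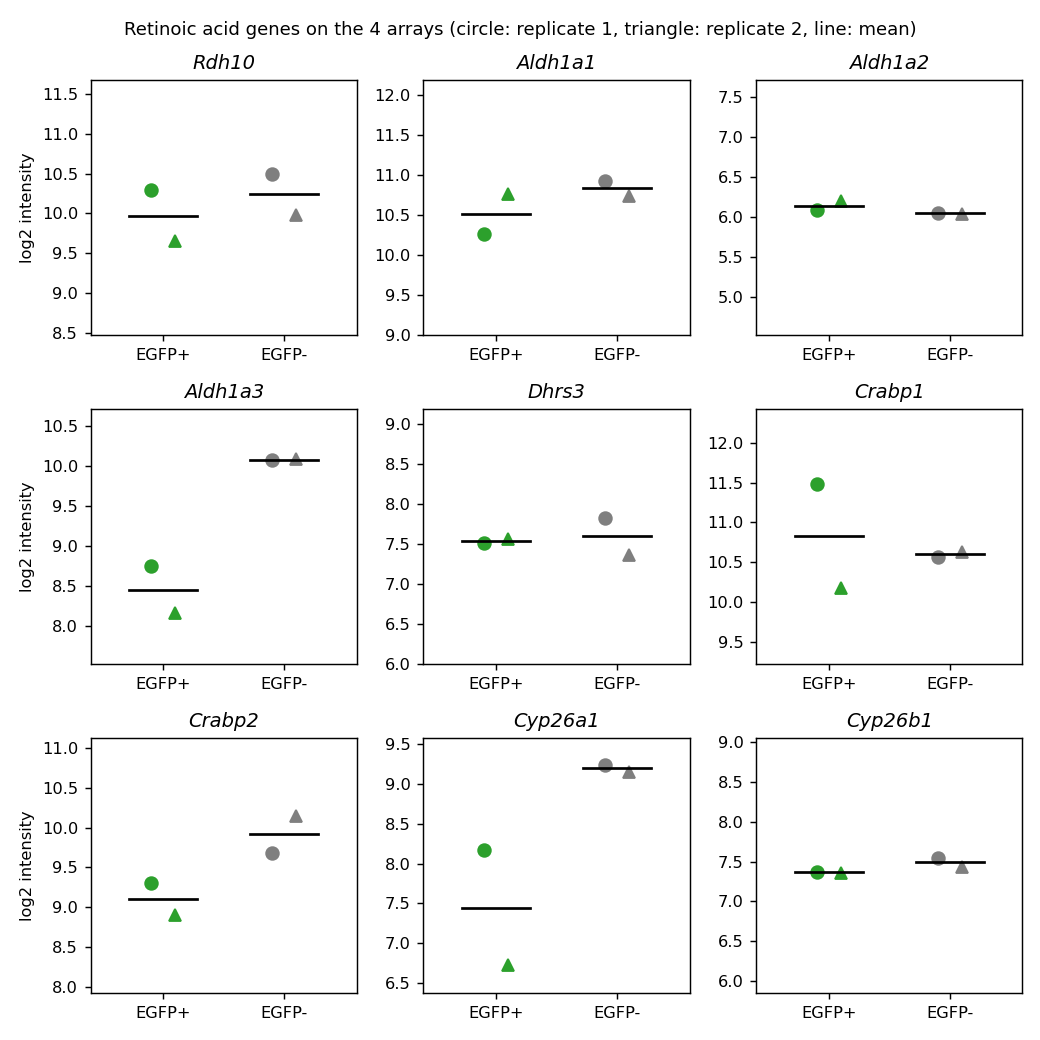
Log2 intensity of each gene (y axis, a range of 3.2 units in every panel) in the EGFP-positive (green) and EGFP-negative (gray) fraction; circles are replicate 1, triangles replicate 2 and lines the mean of 2 arrays. Aldh1a3, Crabp2 and Cyp26a1 have both positive arrays below both negative ones, and the positive arrays of Cyp26a1 and Crabp1 lie far apart.

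Among the synthesis enzymes, Aldh1a3 gave the clearest separation (feature 10564417, Entrez gene 56847). Its intensity was 429.4 and 285.6 in positive replicates 1 and 2, and 1080.0 and 1087.2 in negative replicates 1 and 2. Both positive arrays were thus well below both negative arrays, which were nearly equal. The log2 intensity was 8.45 ± 0.42 against 10.08 ± 0.0068 (SD, n = 2 per fraction). The log2 difference was -1.63 ± 0.21 (SE), with a 95% interval from -2.15 to -1.11 (limma adjusted p = 0.0457). The 4 pairs of 1 positive and 1 negative array gave differences from -1.93 to -1.33. In bulk samples such as these, fewer cells of an expressing type and less RNA per cell cannot be told apart.

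The call of Aldh1a3 lay close to the threshold and depended on the arrays in the fit. The limma adjusted p was 0.308 without negative replicate 1 and 0.268 without negative replicate 2, where the differences were -1.63 and -1.62 and no feature of the whole table was called. Without positive replicate 1 the difference was -1.92 and without positive replicate 2 it was -1.34. In these fits the gene's own spread comes from the negative arrays (SD 0.0068) and leaves out that of the positive arrays (SD 0.42). With 32 added to each value before log2 the adjusted p was 0.0592.

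The other enzymes that make retinoic acid or its precursor were not called. Aldh1a1, the dorsal counterpart of Aldh1a3, read 1226.1 and 1743.8 on the positive and 1956.9 and 1712.6 on the negative arrays. Positive replicate 2 lay between the negative arrays, so the fractions overlapped, and the log2 difference was -0.32 ± 0.19 (95% interval -0.81 to 0.16, adjusted p = 0.462). Rdh10, the retinol dehydrogenase of the first step, read 1256.4 and 804.4 on the positive and 1448.4 and 1014.1 on the negative arrays. Replicate 2 was the lower one in both fractions, by 0.64 and 0.51 on the log2 scale, which is more than the fractions differed (-0.27 ± 0.27, 95% interval -0.96 to 0.42, adjusted p = 0.700). The difference of Rdh10 turned to 0.05 when positive replicate 2 was left out. Aldh1a2, the enzyme of early embryonic mesoderm, read 67.6 and 73.4 on the positive and 66.3 and 65.6 on the negative arrays. Its mean was below the lower quartile of all features, and the difference was 0.10 ± 0.10 (95% interval -0.17 to 0.36, adjusted p = 0.728). The files hold no detection call, so whether this signal is above background is unknown.

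Dhrs3, which acts against the first step by returning retinal to retinol, read 182.9 and 188.8 on the positive and 226.9 and 165.4 on the negative arrays. The positive arrays lay between the negative ones (-0.06 ± 0.17, 95% interval -0.49 to 0.37, adjusted p = 0.921). The difference was 0.17 without negative replicate 1.

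Neither gene of the binding proteins was called. Crabp2, which hands retinoic acid to its nuclear receptor, read 633.5 and 480.0 on the positive and 823.7 and 1135.4 on the negative arrays. Both positive arrays were below both negative ones, while the replicates of each fraction also differed, by 0.40 among positive and 0.46 among negative arrays on the log2 scale. The log2 difference was -0.81 ± 0.21 (95% interval -1.35 to -0.27, adjusted p = 0.136). Crabp1, which binds the acid in the cytoplasm, read 2851.1 and 1156.7 on the positive and 1512.2 and 1591.5 on the negative arrays. Positive replicate 1 was thus the highest and positive replicate 2 the lowest of the 4 arrays, with the negative arrays close together between them. The difference of the means was 0.23 ± 0.41 (95% interval -0.82 to 1.27, adjusted p = 0.860). Left without positive replicate 1 it was -0.42, and 0.88 without positive replicate 2, so that its direction rested on 1 array.

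The breakdown enzymes had fitted differences of unlike size, and neither was called. Cyp26a1 (feature 10462853, Entrez gene 13082) read 286.8 and 105.9 on the positive and 601.4 and 568.7 on the negative arrays. Every positive array was below every negative array, and positive replicate 2 was far below positive replicate 1. The log2 intensity was 7.45 ± 1.02 against 9.19 ± 0.06 (SD, n = 2 per fraction), and the difference was -1.75 ± 0.45 (SE, 95% interval -2.90 to -0.60). The adjusted p was 0.135 in limma. Cyp26b1, its relative, read 165.4 and 164.0 on the positive and 187.4 and 172.8 on the negative arrays. These fractions did not overlap either, but the log2 difference was -0.13 ± 0.10 (95% interval -0.39 to 0.13, adjusted p = 0.609), too small to be told from the spread.

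The size of the Cyp26a1 difference depended on positive replicate 2. Against the negative arrays, positive replicate 1 had log2 differences of -1.07 and -0.99, and positive replicate 2 of -2.51 and -2.42. Without positive replicate 1 the difference was -2.47, and without positive replicate 2 it was -1.03. Each of these fits holds 1 positive array. Its own spread for the gene thus comes from the negative arrays (SD 0.06) and leaves out that of the positive arrays (SD 1.02).

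**Figure D2:**
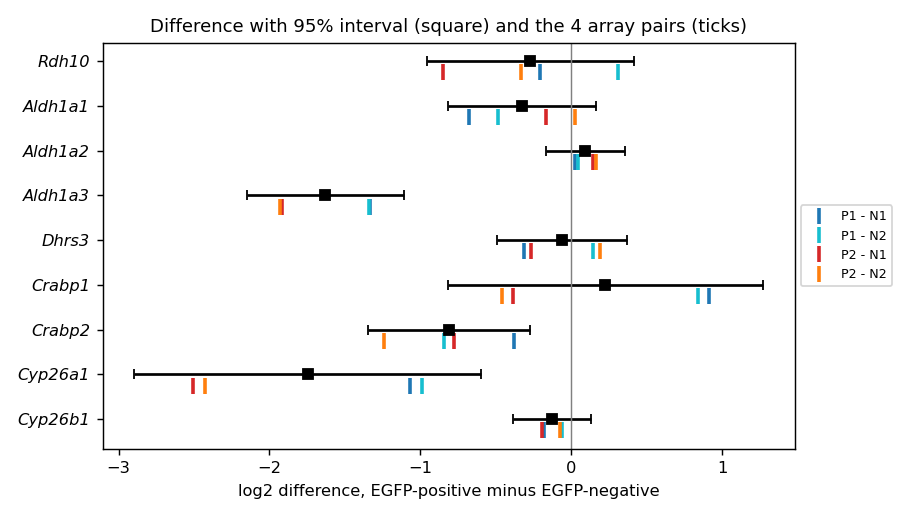
Log2 difference of each gene, EGFP-positive minus EGFP-negative (x axis); squares are the fitted differences with 95% intervals, and ticks are the 4 pairs of a positive (P) and a negative (N) array by replicate number. For Cyp26a1 the ticks of positive replicate 1 lie at -1.07 and -0.99 and those of positive replicate 2 at -2.51 and -2.42, and for Crabp1 they lie on both sides of 0.

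Of the 9 genes, 5 had fractions that did not overlap, 4 with the positive arrays lower (Aldh1a3, Crabp2, Cyp26a1 and Cyp26b1) and 1 with them higher (Aldh1a2). Among all features 47.6% had fractions that did not overlap, 25.3% with the positive arrays lower and 22.3% with them higher. For Cyp26b1 and Aldh1a2 the gap was small beside the 95% interval of the difference, which included 0.

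Placed among all 22431 features, Cyp26a1 had the lowest and Aldh1a3 the third lowest difference. Between them stood Prim1, a subunit of the primase that starts DNA synthesis (-1.64 ± 0.27, adjusted p = 0.0751), a gene picked once its values were known. Ranked from the lowest difference, Cyp26a1 stood at 1 to 3 in every alternative fitted over features except without positive replicate 2, where it stood at 47. Aldh1a3 stood between 3 and 20 in those alternatives, at 20 without positive replicate 1 and at 18 without negative replicate 2. Crabp2 stood at 449, and between 168 without negative replicate 1 and 1243 without negative replicate 2.

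**Figure D3:**
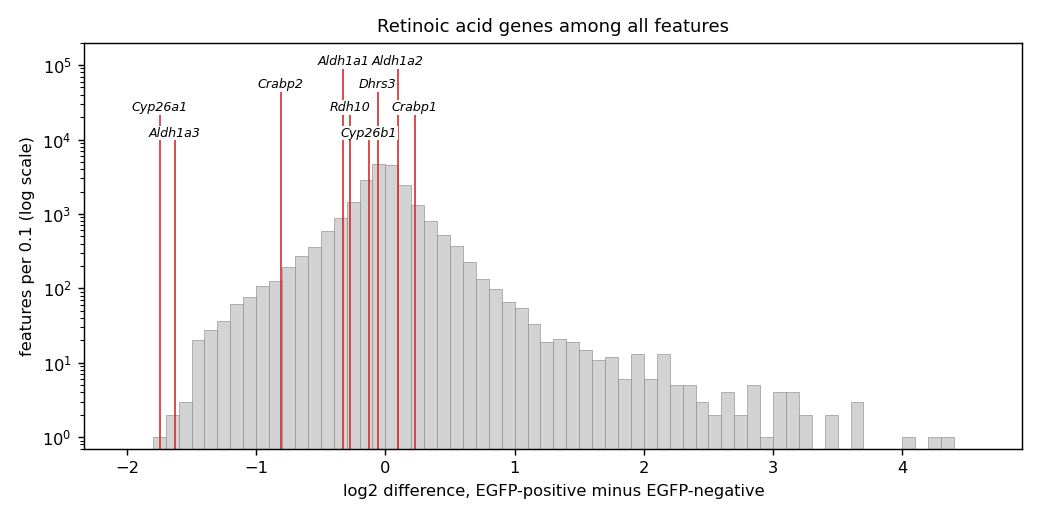
Number of features per 0.1 of log2 difference, EGFP-positive minus EGFP-negative (gray bars, log scale), with red lines at the 9 genes. Cyp26a1 at -1.75 and Aldh1a3 at -1.63 stand at the negative end, Crabp2 at -0.81 lies on the flank, and the other genes lie between -0.32 and 0.23.

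Relatives were also compared within arrays, since the ratio of 2 features of 1 array is free of that array's scale. Such a ratio holds the probes' own sensitivity, so only its change between arrays has a meaning. The log2 ratio of Aldh1a3 to Aldh1a1 was -1.51 and -2.61 on the positive and -0.86 and -0.66 on the negative arrays, a change of -1.31. That of Cyp26a1 to Cyp26b1 was 0.79 and -0.63 against 1.68 and 1.72, a change of -1.62. That of Crabp2 to Crabp1 was -2.17 and -1.27 against -0.88 and -0.49, a change of -1.04. In each of these 3 pairs, added after the values were seen, the fractions did not overlap. Among single features 47.6% did not overlap either, and no such share was worked out for ratios. A two-sided exact permutation test of 2 against 2 arrays cannot give a p below 0.333, so these changes stand as descriptions, and whether relatives differed in response was not tested.

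The spread between replicates was itself uneven over the 9 genes. In the positive fraction the SD of log2 intensity was 1.02 for Cyp26a1 and 0.92 for Crabp1, against a median of 0.10 over all features, and 0.192% and 0.446% of all features had an SD at least as large. In the negative fraction the SDs of these genes were 0.06 and 0.05, against a median of 0.09. Rdh10, Crabp2 and Dhrs3 had larger SDs in the negative fraction, 0.36, 0.33 and 0.32. Of all features 3.73%, 4.9% and 5.11% had a negative SD at least as large. Rdh10, Aldh1a3 and Aldh1a1 had SDs of 0.45, 0.42 and 0.36 in the positive fraction, while Cyp26b1 had 0.0087. Positive replicate 2 was below positive replicate 1 for Rdh10, Aldh1a3, Crabp1, Crabp2, Cyp26a1 and Cyp26b1, and above it for Aldh1a1, Aldh1a2 and Dhrs3.

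The cells of the positive fraction carried the genes of photoreceptor precursors. Of 10 such markers, 8 were higher, and the median difference was 2.88. Crx was higher by 3.66 ± 0.19 (limma adjusted p = 0.00596). Its regulatory sequence drives the reporter used for the sort, so this direction was set by the design. Rbp3, with the largest difference of the 10, was higher by 4.37 ± 0.19 (limma adjusted p = 0.00576). By the same rule 0.82% of all features were higher and 0.143% lower. Of 11 measured progenitor markers, 9 had a difference below 0, with a median of -0.80, and 1 was lower, Sox2 (-1.36 ± 0.10, adjusted p = 0.0119). Their summed intensity was 25188.7 and 19314.2 on the positive and 34871.2 and 34935.3 on the negative arrays. All 9 amacrine markers had a difference above 0 and 2 were higher, Tfap2a and Tfap2b, whose adjusted p was 0.0625 and 0.0647 without positive replicate 2. As for the whole table, none of these markers was called by limma once either negative array was left out. Among 9 ganglion cell, 9 pigment epithelium, 7 ciliary margin, 10 ocular mesenchyme, 7 endothelial, 7 microglial and 7 lens markers none was called by limma, with 0, 1, 1, 0, 0, 1 and 0 at an unadjusted p under 0.05. Of all features 0.963% were called in either direction and 19.2% had an unadjusted p under 0.05. Of the 22431 features, 10731 had a difference above 0 and 11700 below 0. The summed intensity of the mesenchyme markers was 1364.5 to 1588.3 and that of the pigment epithelium markers 921.4 to 1253.5 on the 4 arrays. Of the pigment epithelium markers, Rlbp1 had the widest range, with 227.9 and 114.7 on the positive and 474.8 and 189.9 on the negative arrays. Ganglion cell markers summed to 4370.2 and 7411.6 on the positive and 3433.5 and 7451.7 on the negative arrays, higher on replicate 2 in both fractions. The part of these cell types in the differences of the 9 genes was not tested.

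The genes nearest to Aldh1a3 and Cyp26a1 in pattern were sought by the Euclidean distance between log2 profiles over the 4 arrays, each centred on its mean. Those nearest to Aldh1a3 were Shcbp1, which acts in cytokinesis (distance 0.16, difference -1.52), Cenph, of the kinetochore (0.17, -1.51), and Ajuba, a LIM protein of cell adhesion and signalling (0.17, -1.48). Those nearest to Cyp26a1 were Tipin, of the replication fork (0.32, -1.48), Pbk, a mitotic kinase (0.39, -1.50), and Tnfaip6, which binds hyaluronan (0.41, -1.43). Of these 6, Ajuba was called (limma adjusted p = 0.0417), though not with 32 added before log2 (0.0548) or once either negative array was left out (0.294 and 0.254). Likeness over 4 arrays of 2 fractions is a description of these arrays.

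Of the 11 progenitor markers, 8 had the lower value on the replicate 2 array, in the positive and also in the negative cells. So had 21 of the 65 pathway list genes described below, and no such share was worked out over all features. The 8 include small moves, such as that of Sox2 (-0.006 in the positive and -0.05 in the negative cells on the log2 scale). Over all features the median of replicate 2 minus replicate 1 was 0.02 in the positive and -0.04 in the negative cells, on the log2 scale. Hes1, a Notch target that keeps progenitors undifferentiated, read 745.1 and 340.2 on the positive and 1708.9 and 1185.6 on the negative arrays. Ccnd1, the D-type cyclin of retinal progenitors, read 6046.0 and 3384.2 against 9462.8 and 8734.1. These genes were chosen after their values were seen, and each was lower in positive replicate 2 than in any other array. Sfrp2 (1287.9 and 2048.0 on the positive arrays) and Six6 (1004.9 and 1163.4) were higher in positive replicate 2. Six3 and Rax were lowest in negative replicate 2.

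Beyond the 9 genes, 65 measured genes of 7 lists on the pathway and its setting were examined. None was called by limma, against 0.963% of all features in either direction, and at an unadjusted p under 0.05 there were 8 higher and 8 lower, where 19.2% of all features passed in either direction. Their differences had a median of -0.01, with 32 above and 33 below 0.

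The 6 nuclear receptor genes that read the acid had a median difference of 0.01, and none was called (2 at an unadjusted p under 0.05 in limma, a threshold that 19.2% of all features passed). Rara differed by 0.13 ± 0.10, Rarg by 0.09 ± 0.11, Rxra by -0.09 ± 0.11 and Rxrb by -0.07 ± 0.11. Rarb, the receptor gene whose upstream repeat is printed above, read 301.4 and 320.8 on the positive and 473.0 and 390.7 on the negative arrays. Its positive arrays were below its negative arrays, as for Cyp26a1, but with a smaller difference (-0.47 ± 0.13, adjusted p = 0.152). Rxrg, a retinoid X receptor of cones, read 262.8 and 412.4 against 100.6 and 119.9 (1.58 ± 0.24, adjusted p = 0.0634). With a robust variance trend in limma Rxrg had an adjusted p of 0.0474, within a range of 0.00404 to 0.336 over the alternatives.

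Receptor coregulators had differences above 0 in 7 of 8 measured genes, with a median of 0.36, counting Fabp5 and Ppard of a second route for the acid. Among all 22431 features 10731 were above 0. The coactivator Ncoa1 differed by 0.64 ± 0.13 (adjusted p = 0.0885) and the acetyltransferase Ep300 by 0.58 ± 0.10 (adjusted p = 0.0785). Fractions did not overlap in 5 of the 8, all with the positive arrays higher, against 22.3% of all features in that direction.

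Genes of retinol uptake, transport and storage differed in both directions, with 6 of 10 above 0 and a median of 0.04. Rbp4, the retinol carrier of plasma, read 184.6 and 350.1 on the positive and 122.1 and 133.7 on the negative arrays (0.99 ± 0.30, adjusted p = 0.174). Scarb1, a lipoprotein receptor that also takes up carotenoids, read 957.3 and 436.1 against 1445.2 and 732.1, with replicate 2 the lower in both fractions (-0.67 ± 0.47, adjusted p = 0.551). Without positive replicate 1 the difference of Rbp4 was 1.45, and without positive replicate 2 it was 0.53.

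Of 21 further enzymes that act on retinoids or carotenoids, 14 had a difference below 0, as had 11700 of all 22431 features. The median difference of these enzymes was -0.06, and 9 had a mean below the lower quartile of all features. Cyp26c1, the third member of the breakdown family, read 186.0 and 178.6 on the positive and 255.1 and 233.5 on the negative arrays (-0.42 ± 0.11, adjusted p = 0.129). All 3 Cyp26 genes thus had both positive arrays below both negative arrays, with mean differences of -1.75, -0.42 and -0.13, an arrangement that 25.3% of all features had too, and none of them was called. Adh5, a class of alcohol dehydrogenase found in most tissues, differed by -0.65 ± 0.19 (adjusted p = 0.162).

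Genes known to respond to retinoic acid in other tissues, 10 of them measured, had differences on both sides of 0. Meis2, a homeobox gene, read 3677.0 and 3436.4 on the positive and 1489.2 and 609.8 on the negative arrays (1.90 ± 0.41, adjusted p = 0.10). Nr2f1, an orphan nuclear receptor gene, read 473.9 and 422.0 against 746.3 and 948.1 (-0.91 ± 0.15, adjusted p = 0.0751). The list includes Rarb. Its median was 0.10 with 6 genes above 0, while Cyp26a1, Dhrs3 and Crabp2, which also respond to the acid in other settings, were kept out of it as members.

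Because Aldh1a1 and Aldh1a3 mark opposite poles of the retina, genes of dorsal and ventral position were read beside them. The 7 dorsal genes had a median difference of 0.01, and the largest in size were those of Bambi, an inhibitor of BMP signalling (-0.40 ± 0.11, adjusted p = 0.151), and Efnb2, an ephrin of dorsal retina (-0.27 ± 0.11, adjusted p = 0.265). All 5 measured ventral genes had a difference below 0, with a median of -0.24, and so had 11700 of all 22431 features. Among the 5, Ntn1 differed by only -0.006 ± 0.12. Bmpr1b, a BMP receptor of ventral retina, read 211.2 and 169.6 on the positive and 329.6 and 435.1 on the negative arrays (-1.001 ± 0.18, adjusted p = 0.0843). The Eph receptor gene Ephb3 differed by -0.51 ± 0.30 (adjusted p = 0.457), and Vax2, a homeobox gene of ventral retina chosen after its values were seen, by -0.24 ± 0.10 (adjusted p = 0.306). No gene of either list was called by limma, with 1 of 7 dorsal and 1 of 5 ventral genes at an unadjusted p under 0.05, both lower, where 9.83% of all features were. The difference between the lists was not tested.

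**Figure D4:**
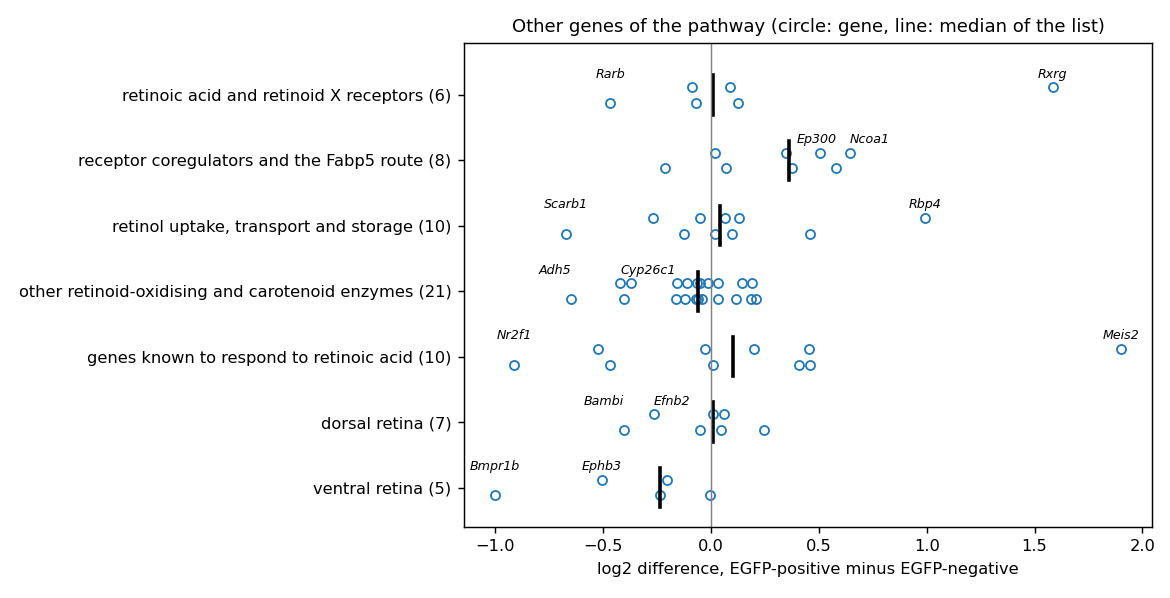
Log2 difference, EGFP-positive minus EGFP-negative (x axis), of the measured genes in each of 7 lists, with the number of genes in parentheses; circles are genes, vertical lines the median of the list, and the 2 genes with the largest difference in size are named. Medians run from -0.24 for ventral genes to 0.36 for coregulators, and Rxrg at 1.58 and Meis2 at 1.90 stand apart from their lists.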

How the data were processed

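The authors deposited normalised intensity values, 1 column per array; per the submitters' processing notes they were made with RMA (background correction, quantile normalisation and probe summary) on build mm8. Which version, probe sets and filters were used is not given in the labels. The intensities spanned 18.9 to 36625.2 with array medians of 218.4 to 222.9, from which a linear scale was inferred, and log2 was taken without a pseudocount. RMA compresses differences of dim features, and the number of arrays limits the precision. Of 22431 features, 20176 have 1 gene symbol in the platform annotation. Some genes of the lists are not reported here.

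Log2 differences came from limma 3.58.1, run in R 4.3.3 (lmFit, eBayes without a trend, all 4 arrays, no block), two-sided, with Benjamini-Hochberg adjustment over all features, and the code was tested on simulated data. Alternatives were a robust variance trend, another quantile normalisation, median centring, an added 32, a filter at the 25th percentile, gene means, the replicate block and leaving out each array.

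The members and lists were chosen with earlier results of these data known. All 9 members are named, with the called genes of each pathway list or else its 2 largest differences, and the 3 genes nearest in pattern to each member that differs by at least 1. The receptors are all named. Cell type markers are given as counts, with some also named. Some of the named markers, such as Hes1 and Ccnd1, were chosen after their values were seen, as were Prim1 and Vax2. The within-array ratios were added after the values were seen.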

Additional observations from a re-analysis of the deposited data

How the results depend on the processing

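Of the 9 genes, Aldh1a1, Aldh1a2, Aldh1a3, Crabp2, Cyp26a1 and Cyp26b1 kept their direction in every alternative run, Aldh1a2 in 10 because the filter on dim features removes it. Over the fits that leave out 1 array, the direction turned for Crabp1 (-0.42 without positive replicate 1 to 0.88 without positive replicate 2), Rdh10 (-0.59 without positive replicate 1 to 0.052 without positive replicate 2), Dhrs3 (-0.29 without negative replicate 2 to 0.17 without negative replicate 1) and the receptor gene Rxrb (-0.16 without positive replicate 1 to 0.017 without positive replicate 2). With 32 added before log2, limma called 0 members lower, with 3 at an unadjusted p under 0.05. In the same fits, where the lone array is assumed to vary like the other fraction, members called lower ranged from 0 to 2, and features called from 0 to 667 higher and 0 to 762 lower. The pathway lists had 0 to 3 genes called higher and 0 to 2 lower in these fits, and 1 higher, Rxrg, with the robust variance trend. With each gene as the mean of its features, 51 genes were called lower against 32 features. With the replicate number as a block, 1377 features were called higher and 1500 lower, members lower were 2 (Aldh1a3 and Cyp26a1, adjusted p = 0.0202), and the pathway lists had 6 genes higher and 7 lower. Differences of replicate 2 from replicate 1 correlated between the fractions (r = 0.48 over features), but with 2 pairs this does not establish a pairing. Median centring moved the median difference of all features by 0.02 on the log2 scale. With 2 arrays per fraction and no detection calls, dim genes such as Aldh1a2 carry little information.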
